A study of Mus musculus with 4 samples.

Results

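The genes described here belong to the ubiquitin system. They are genes with symbols starting with Ube2, mostly ubiquitin-conjugating enzymes, and ubiquitin-specific proteases (Usp and a digit). F-box proteins (Fbxl, Fbxo or Fbxw and a digit) and tripartite motif proteins (Trim and a digit) complete the set. All were chosen by these symbol patterns in the platform annotation, a rule that uses no measured value. Earlier results of these data were known when the families were picked. Of 11138 genes measured, 104 qualified, made up of 25 Ube2, 26 Usp, 28 Fbx and 25 Trim genes, read by 226 spots of 113 oligonucleotides. All 104 had a value on all 4 arrays, with no filter on low values.

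RNA of cardiac endothelium, the cell layer lining the vessels of the heart, was compared between mice injected intraperitoneally with LPS and mice injected with saline. LPS (lipopolysaccharide) is a bacterial cell wall molecule that sets off an innate immune response. Hearts were collected 4 h or 24 h after the injection, and each time had 2 arrays with 2 colours each. The first array of a time carried LPS RNA in Cy5 and saline RNA in Cy3, and the second carried the reverse. Strain, age, sex, LPS dose, number of animals and the way the endothelium was isolated were not stated in the labels, and the RNA was amplified before labelling. No separate extracts were named for the reversed arrays, so the 2 arrays of a time counted as 1 replicate, and ± gives the SD of these 2 arrays (n = 2 arrays), which does not cover the spread between animals.

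Ubiquitin is attached to proteins by an activating enzyme (E1), a conjugating enzyme (E2) and a ligase (E3), and it is removed by deubiquitinases. Ube2 genes mostly encode E2 enzymes and their inactive variants, and Usp genes encode the largest family of deubiquitinases. F-box proteins bring substrates to the SCF ligase, which is built on a cullin, and TRIM proteins are mostly RING ligases, several of which act in antiviral defence. ISG15 is a ubiquitin-like protein induced by interferon. Ube2l6 is its conjugating enzyme, Usp18 removes it and also dampens signalling at the type I interferon receptor, and LPS is a known inducer of interferon through Toll-like receptor 4.

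All values are log2 ratios of LPS over saline, so that 1 unit is 2-fold, after the sign of the arrays with LPS in Cy3 was turned and the median over genes was subtracted from every array. The deposited table does not state its direction, which is called likely here from the dyes in the labels. With every sign turned, each higher value below would read lower. As deposited, the member spots of the 2 arrays of a time correlated at -0.084 at 4 h and -0.15 at 24 h over 226 spots, a weak relation that does not settle the direction. A gene was called higher or lower where its value on each of the 2 arrays was 1 log2 unit or more from 0, with the same sign. Levels could not be compared, since ratios carry no intensity, and for the same reason the endothelial identity of the samples could not be checked from its markers. In tissue RNA, fewer cells of a type and less RNA per cell cannot be told apart.

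Promoter letters are shown first for the members that carry a binding motif of interferon-activated factors, because the list of interferon-linked genes is followed through the results. The motif searched was GAAA, any 2 bases and GAAA again, on both strands, in RefSeq windows of assembly GRCm38.p6 that ran from 250 bases before to 50 after a transcript start, and overlapping matches were counted. Windows were held for 75 of the 104 members, and 7 of these 75 genes (9.33%) contained the motif, against 341 of 8849 measured genes (3.85%). Of the Trim genes 5 of 17 held it, of the Usp genes 1 of 21, of the Fbx genes 1 of 18 and of the Ube2 genes 0 of 19. The stretches of 30 bases around the motif in 4 Trim genes on chromosome 7 read as follows, 5′ to 3′ on the gene's strand, with the motif in capitals.
Trim30a (chr7:104465210-104465239, minus strand): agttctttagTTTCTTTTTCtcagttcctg
Trim21 (chr7:102565447-102565476, minus strand, overlapping matches): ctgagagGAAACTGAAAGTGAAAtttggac
Trim34a (chr7:104244457-104244486, plus strand): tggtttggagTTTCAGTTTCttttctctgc
Trim12a (chr7:104315466-104315495, minus strand): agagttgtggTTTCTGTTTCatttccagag

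In Trim30a the first base of the match lay at -36 from the start, and in Trim21, Trim34a and Trim12a it lay just downstream, at positions 13, 10 and 10. Another annotated start of Trim30a had a match as well. None of these 4 genes was called at 4 h or at 24 h. The other genes with a match were Trim2, Usp17lc and Fbxo36. For comparison, the 100 bases before the start of the 3 members that were called higher at 4 h and had a window are printed too. None of these windows held a match, which says only that these letters were not in the window.
Ube2l6 (chr2:84798728-84798827, plus strand): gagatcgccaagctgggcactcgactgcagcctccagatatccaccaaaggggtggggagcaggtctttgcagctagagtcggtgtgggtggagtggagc
Usp25 (chr16:77013969-77014068, plus strand): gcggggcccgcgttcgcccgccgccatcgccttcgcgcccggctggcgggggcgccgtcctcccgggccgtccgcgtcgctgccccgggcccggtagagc
Usp16 (chr16:87454885-87454984, plus strand): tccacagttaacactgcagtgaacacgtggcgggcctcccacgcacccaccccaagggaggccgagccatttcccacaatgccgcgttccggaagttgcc

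The first comparison asked which members differed between LPS and saline at 4 h. Usp18, Usp25, Ube2l6 and Usp16 were called higher and Fbxo9 was called lower. This made 5 of 104 members (4.81%), where 3.25% of all genes were called, so the count lay near the background. By direction, 4 members (3.85%) were higher against 2.25% of all genes, and 1 (0.962%) was lower against 0.997%. Another 1 member and 1.42% of all genes passed 2-fold on each array with opposite signs.

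Usp18 was the highest member at 4 h. It stood at 2.60 with LPS in Cy5 and at 2.81 with LPS in Cy3, a mean of 2.71 ± 0.14, and its 4 spots ran from 2.34 to 3.27. Both arrays and all spots were thus far above the 2-fold line. Usp25, a deubiquitinase known to act on TRAF adaptors in Toll-like receptor and interferon signalling, stood at 3.30 and 1.86, a mean of 2.58 ± 1.02. The spots of Usp25 within an array lay close together, from 3.22 to 3.37 and from 1.76 to 1.95, so the arrays differed from each other more than the spots did. Ube2l6 stood at 2.02 and 1.42, a mean of 1.72 ± 0.43, with spots from 1.37 to 2.57. Usp16, known as a deubiquitinase of histones, stood at 1.59 and 1.78, a mean of 1.69 ± 0.14, with spots from 1.36 to 1.97. In all 4 of these genes every spot on both arrays was at least 2-fold, which 1.25% of all genes reached in the higher direction and 1.57% in either; 0.323% of all genes did so in the lower direction, and 0 members. Fbxo9, a substrate receptor of the SCF ligase, was at -1.25 and -1.56, a mean of -1.40 ± 0.22, and its weakest spot at -0.73 was not 2-fold.

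**Figure D1:**
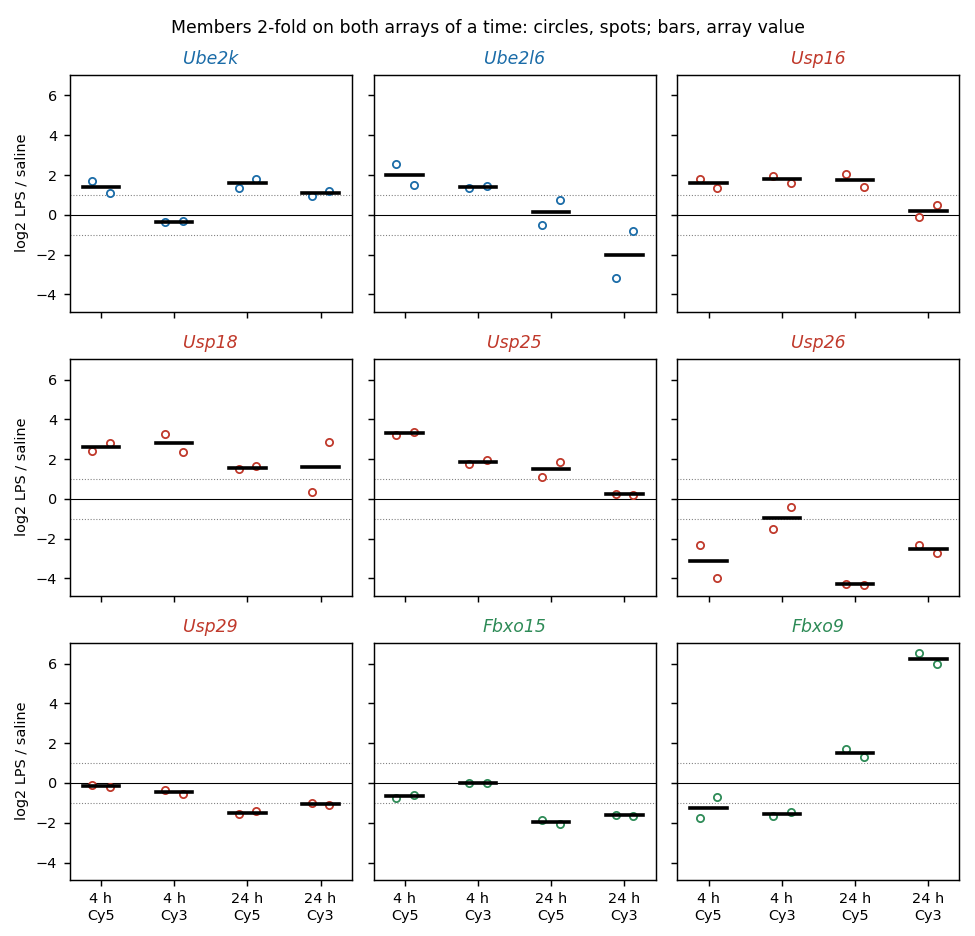
Log2 LPS over saline (vertical axis) on the 4 arrays (horizontal axis: time and the dye of the LPS RNA) for the 9 members called at 4 h or 24 h; circles are single spots, bars the value of the array and dotted lines 2-fold. Usp18 lies above 2-fold on all 4 arrays, Fbxo9 changes side between the times, and the 24 h value of Fbxo9 rests on arrays at 1.502 and 6.23.

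At 24 h Usp18, Ube2k and Fbxo9 were called higher, and Usp26, Usp29 and Fbxo15 were called lower. These 6 of 104 members (5.77%) compare with 7.00% of all genes. A 1.5-fold threshold on both arrays took in 21 members (20.2%) at 24 h, against 16.2% of all genes, and 10 (9.62%) at 4 h, against 8.45%. In each direction 3 members (2.88%) were called, against 3.48% of all genes higher and 3.52% lower. Usp18 was the 1 member called higher at both times, as were 0.485% of all genes.

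Usp18 stood at 1.57 and 1.60 at 24 h, a mean of 1.59 ± 0.02. The array values nearly coincided, but the spots of the second array lay at 0.33 and 2.87, so the small SD overstates how well the gene was measured there. Ube2k, an E2 that builds ubiquitin chains, stood at 1.59 and 1.07, a mean of 1.33 ± 0.36, with its weakest spot at 0.97. At 4 h the arrays of Ube2k had disagreed, at 1.42 and -0.35. Fbxo9 stood at 1.502 and 6.23, a mean of 3.87 ± 3.35. All of its spots were above 2-fold, but the size of the mean rests largely on the array with LPS in Cy3.

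Of the 3 members called lower at 24 h, Usp26, an X-linked testis protease, stood at -4.29 and -2.49, a mean of -3.39 ± 1.27, and was also low at 4 h, at -3.15 and -0.97, where the second array just missed 2-fold. Fbxo15, a marker of embryonic stem cells, stood at -1.97 and -1.63, a mean of -1.80 ± 0.25, with all spots past 2-fold. Usp29, expressed from the paternal allele mainly in brain and testis, stood at -1.49 and -1.04, a mean of -1.27 ± 0.32, with its weakest spot at -0.997. Of 6 measured members in a list of testis-biased genes, these 3 were lower and 0 higher at 24 h, against 3.52% of all genes lower. The list median was -0.78, against -0.02 over all genes. The others were Usp50 at -0.29 ± 0.19, Trim42 at -0.27 ± 0.41 and Trim17 at 0.01 ± 0.85. This list was put together with earlier results of these data known, so its count is not independent evidence. In Fbxo9, Usp26 and Fbxo15 every spot was at least 2-fold at 24 h, 1 member higher and 2 lower, against 3.65% of all genes, 1.87% higher and 1.78% lower. Whether the saline or the LPS sample held a measurable amount of these transcripts cannot be read from ratios.

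**Figure D2:**
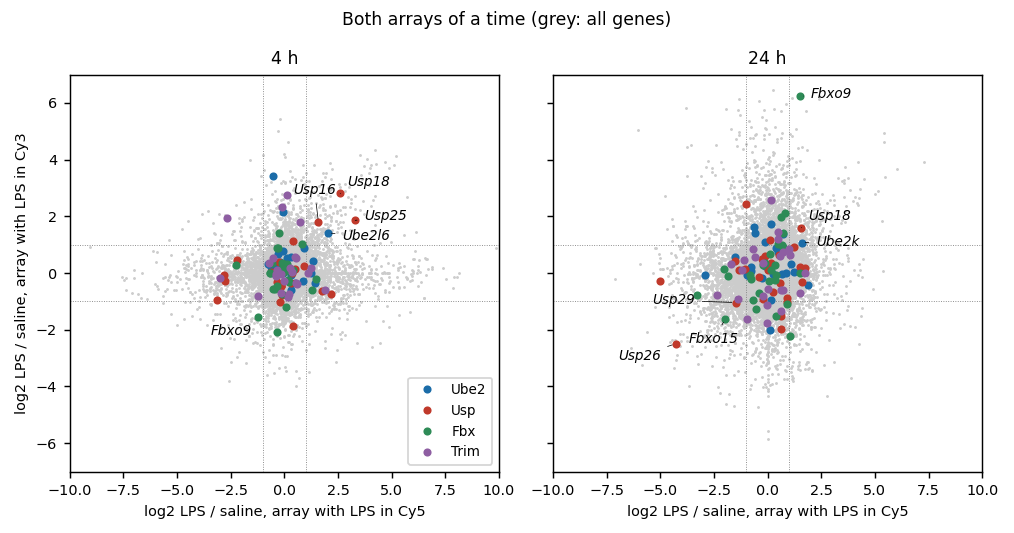
Log2 LPS over saline on the array with LPS in Cy5 (horizontal) against the array with LPS in Cy3 (vertical) at 4 h and 24 h; coloured points are the 104 members by class, grey points all genes, dotted lines 2-fold, and called members carry their names. The 2 arrays correlate at 0.15 at 4 h and 0.23 at 24 h across members, and 5 members at 4 h and 6 at 24 h lie past 2-fold on the same side of both.

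A limma fit that took the arrays for separate samples gave 0 members and 0 genes at an adjusted p under 0.05 at either time. The smallest adjusted p of a member was 0.445 at 4 h, for Usp18, and 0.391 at 24 h, for Fbxo15, Usp18 and Usp26. At an unadjusted p under 0.05 there were 6 members (5.77%) at 4 h, against 4.26% of all genes, and 11 (10.6%) at 24 h, against 10.1%. The shares of members thus lay close to those of all genes by this measure too.

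The 4 classes were compared by their counts and medians. At 4 h, 3 of 26 Usp genes were called (11.5%), 1 of 25 Ube2 genes (4.00%), 1 of 28 Fbx genes (3.57%) and 0 of 25 Trim genes, against 3.25% of all genes. At 24 h the counts were 3 Usp (11.5%), 1 Ube2 (4.00%), 2 Fbx (7.14%) and 0 Trim genes, against 7.00% of all genes. In limma, an unadjusted p under 0.05 was reached at 4 h by 4 Usp, 1 Ube2, 0 Fbx and 1 Trim gene, and at 24 h by 3 Usp, 0 Ube2, 6 Fbx and 2 Trim genes, against 4.26% and 10.1% of all genes. The classes differed by at most 3 called genes, and no test of the classes was made.

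The medians of the classes lay close to 0 and to each other. At 4 h the median over members was 0.12 for Ube2, -0.14 for Usp, -0.04 for Fbx and -0.01 for Trim, where all genes had -0.02. At 24 h it was 0.31 for Ube2, 0.04 for Usp, 0.04 for Fbx and 0.01 for Trim. The order of the classes was not the same on the 2 arrays of a time. At 4 h the Trim class had the highest median on the first array, at 0.14, and the Ube2 class on the second, at 0.23. At 24 h the Fbx class had the highest median on the first array, at 0.25, and the lowest on the second, at -0.03. The Ube2 medians at 24 h were 0.13 and 0.22 on the 2 arrays. The highest and lowest class medians of 1 array were 0.23 to 0.32 apart, and no class held the same place on all 4 arrays.

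**Figure D3:**
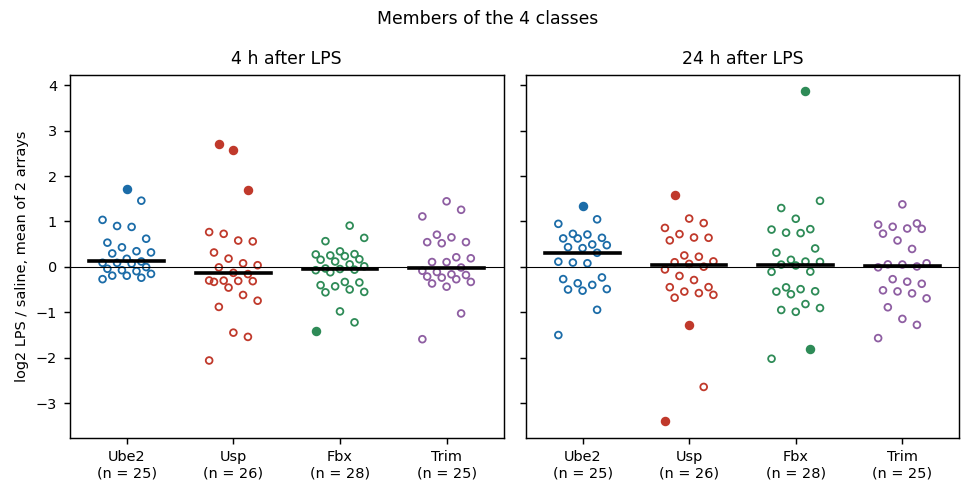
Mean log2 LPS over saline of the 2 arrays (vertical axis) for each member by class at 4 h and 24 h; filled points are called members and bars class medians. The medians lie between -0.14 and 0.31, and the Usp class spreads farthest at 4 h, from -2.06 to 2.71.

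Members of a class spread far more than the class medians. The Usp class ran from -2.06 (Usp26) to 2.71 (Usp18) at 4 h, while Ube2 members lay between -0.27 (Ube2o) and 1.72 (Ube2l6). Fbx members ran from -1.40 (Fbxo9) to 0.91 (Fbxo6) and Trim members from -1.59 (Trim12a) to 1.44 (Trim2). Within 0.5 log2 units of 0 at 4 h lay 66 of 104 members (63.5%), against 68.3% of all genes. At 24 h this was 45 members (43.3%), against 51.6%, and the lowest members of the classes were Ube2r2 at -1.50 ± 2.03, Usp26, Fbxo36 at -2.02 ± 1.77 and Trim12a at -1.56 ± 1.13. The highest were Ube2k, Usp18, Fbxo9 and Trim3 at 1.38 ± 1.70. The SDs of Ube2r2, Fbxo36 and Trim3 are as large as their means or nearly so, and none of these was called.

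Array and spot error was large beside most of these values. The arrays of a time had the same sign in 47 of 104 members at 4 h and in 56 at 24 h. Of all 11138 genes, 5553 at 4 h and 5823 at 24 h had the same sign. The arrays correlated at 0.15 and 0.23 across members, against 0.12 and 0.12 across all genes. The arrays of a time may share their RNA extracts, and genes are not independent replicates. The 2 spots of an oligonucleotide differed by no more than 0.5 log2 units on any of the 4 arrays for 17 of 113 oligonucleotides, and for 2060 of 12172 over all genes (16.9%). For 42 (37.2%) they differed by more than 2 log2 units on at least 1 array, against 37.1% over all genes. The widest gap was in Usp39, a splicing factor of the Usp fold, whose spots differed by 8.66 on the second array of 24 h. Usp39 stood at -2.64 ± 3.35 at that time. Trim42 at 4 h, at -2.66 and 1.93, and Fbxo25 at 24 h, at 1.03 and -2.23, passed 2-fold with opposite signs on the arrays. For Fbxo25 this compares with 3.69% of all genes at 24 h.

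**Figure D4:**
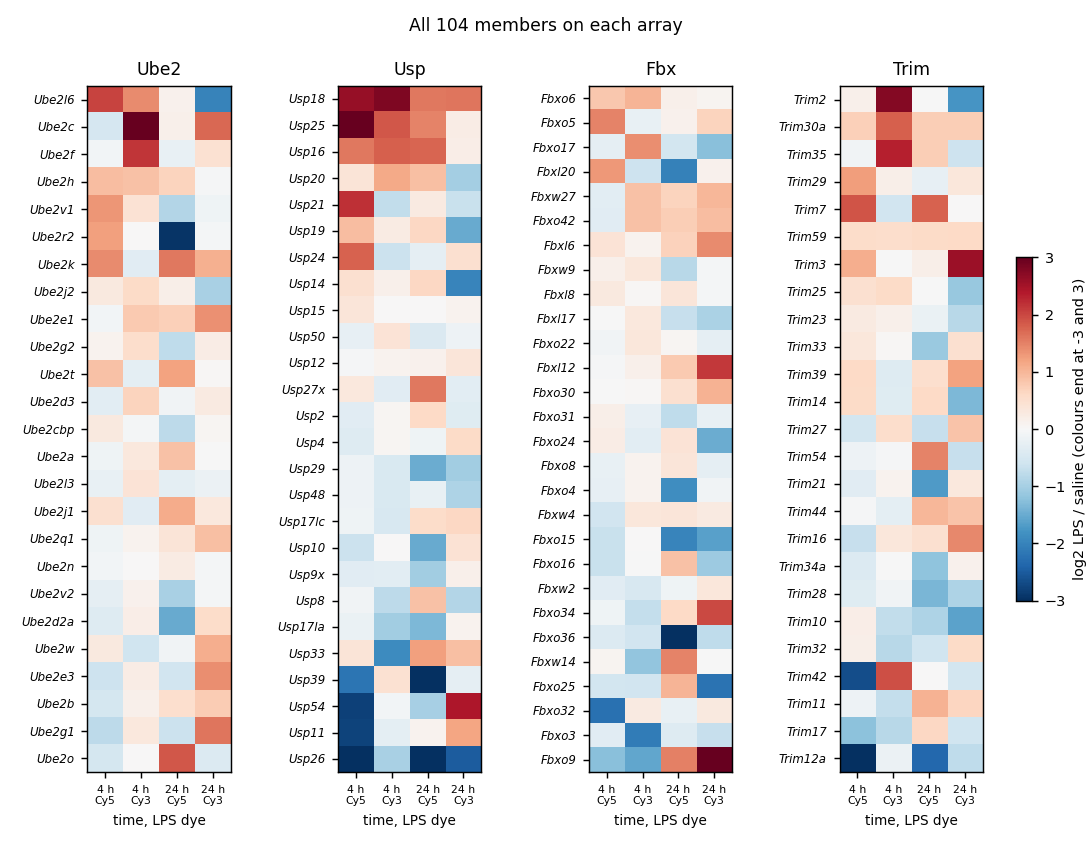
Log2 LPS over saline (colour, ending at -3 and 3) of all 104 members on the 4 arrays, labelled by time and the dye of the LPS RNA; each panel is a class, sorted by the mean at 4 h. The arrays of a time have the same sign in 47 members at 4 h and in 56 at 24 h, and Usp18, Usp25 and Usp16 head the Usp panel.

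Of the 25 Ube2 genes, 18 lay within 0.5 log2 units of 0 at 4 h and 14 at 24 h. Ube2n, which makes the ubiquitin chains that carry Toll-like receptor signals, stood at -0.08 and 0.00 at 4 h and at 0.24 and -0.05 at 24 h. The 0.00 came from 2 spots with a deposited ratio of exactly 1, of which it is unknown whether they were measured. Its partner Ube2v1 was at 0.88 ± 0.63 at 4 h and -0.50 ± 0.53 at 24 h. Ube2h stood at 0.93 and 0.88 at 4 h, just under 2-fold on both arrays. Ube2c, the E2 of the anaphase-promoting complex, was at -0.51 and 3.43 at 4 h, so its mean of 1.46 rests on 1 array. Of the E2 enzymes for ubiquitin-like proteins, Ube2f, which conjugates NEDD8, stood at 1.04 ± 1.57 at 4 h and at 0.12 ± 0.48 at 24 h, again without agreement of the arrays at 4 h. Ube2l6 itself was at 0.13 and -2.01 at 24 h.

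Interferon and ISG15 genes were followed as a list of which 10 members and 5 other genes were measured. At 4 h, 4 of these 15 were called higher and 0 lower, with a list median of 0.91, against 2.25% of all genes called higher and a median of -0.02. At 24 h, 1 was called higher and 0 lower, with a list median of 0.12, against 3.48% and a median of -0.02. The list was drawn up with earlier results of these data known, so its counts are a description. The members called at 4 h were Usp18, Usp25 and Ube2l6, and the other gene was Pml, a RING protein of nuclear bodies that belongs to the TRIM family under another name, at 1.89 and 2.23. Fbxo6, which recognises glycoproteins for degradation, stood at 0.80 and 1.01 at 4 h, and Trim30a, an inhibitor of Toll-like receptor signalling, at 0.72 and 1.80. Both were above 0 in every spot at 4 h but missed 2-fold on 1 array. At 24 h Fbxo6 was at 0.14 and 0.09, and Trim30a at 0.73 and 0.73.

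None of the remaining 5 interferon-linked Trim genes was called, and all 5 had means below 0 at 24 h, where both arrays lay below 0 in Trim25 and Trim12a. Trim25, a ligase acting on the RNA sensor RIG-I and on ISG15 conjugation, was at 0.48 and 0.56 at 4 h and at -0.02 and -1.14 at 24 h. The -1.14 came from spots at -2.23 and -0.05, so the low mean of Trim25 at 24 h rests on a single spot. Trim14, an adaptor of antiviral signalling, was at 0.56 and -0.35 at 4 h and 0.60 and -1.34 at 24 h. Trim21, which binds antibodies in the cytosol, was at -0.34 and 0.12 at 4 h and at -1.71 and 0.32 at 24 h. Trim34a stood at -0.40 and -0.02 at 4 h and at -1.20 and 0.12 at 24 h. Trim12a stood at -2.99 and -0.18 at 4 h, with spots of the first array at -4.93 and -1.05. At 24 h it stood at -2.36 and -0.77. The -2.36 came from spots at -0.26 and -4.46, so it rests largely on a single spot. Trim30a and Trim12a have near-identical neighbours in the mouse genome, and whether their oligonucleotides tell them apart is not known here.

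Of the ISG15 pathway outside the 4 classes, Isg15 stood at 1.25 and -0.47 at 4 h. Its E1 enzyme Uba7 was at 1.71 and 0.00, and its ligase Herc6 at 0.38 and 2.29. None of these 3 was called, and each was high on only 1 of the arrays. The 0.00 of Uba7 came from spots with a deposited ratio of exactly 1. Its spots at 4 h ran from 0.00 to 3.41, so the 1.71 of Uba7 averages spots that disagreed. Of the ISG15 pathway, the conjugating enzyme and the protease were thus called at 4 h.

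**Figure D5:**
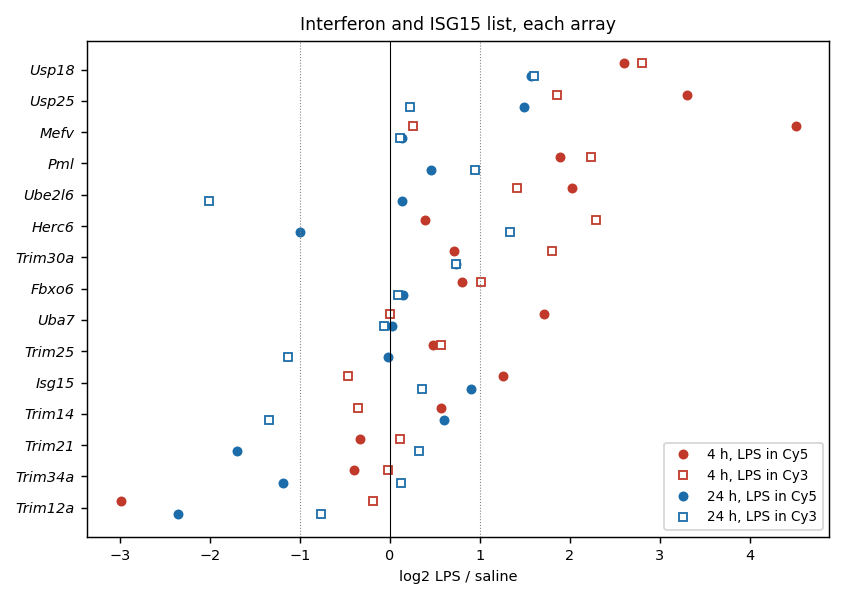
Log2 LPS over saline (horizontal axis) on each array for the 15 measured genes of the interferon and ISG15 list, sorted by the mean at 4 h; red marks are 4 h, blue marks 24 h, filled circles LPS in Cy5, open squares LPS in Cy3, and dotted lines 2-fold. Usp18, Usp25, Pml and Ube2l6 have both 4 h values above 1, and the 24 h values of Usp25, Pml and Ube2l6 lie lower.

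Ligases and proteases linked to muscle wasting were measured in 4 cases, and 0 were called at 4 h or 24 h. Of all genes, 3.25% and 7.00% were called at these times. Fbxo32 (atrogin-1), an F-box protein of muscle protein breakdown, stood at -2.23 and 0.28 at 4 h, but the spots behind -2.23 were -5.97 and 1.51. At 24 h it was at -0.23 and 0.29. Fbxo30 was at 0.48 and 1.03 at 24 h, Trim54, a RING protein of striated muscle, at 1.49 and -0.70, and Usp19 at 0.63 and -1.52. Among 12 cardiomyocyte markers, 0 were called at 4 h, and 0 were higher and 1 lower at 24 h, with list medians of -0.22 and 0.09. At 24 h 3.48% of all genes were higher and 3.52% lower.

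The NF-kB and innate signalling list held 21 measured genes. At 4 h 1 of these was called higher, the ligase Birc3 at 2.19 ± 1.47, and 0 lower, against 2.25% and 0.997% of all genes. At 24 h Ube2k and Rbck1 were higher, and the deubiquitinase Tnfaip3 was lower at -1.80 ± 0.36. Rbck1, a subunit of the linear ubiquitin ligase, stood at 1.56 ± 0.78, with spots from 0.14 to 4.07. These 2 higher and 1 lower compare with 3.48% and 3.52% of all genes. The list median was 0.09 at 4 h and 0.10 at 24 h. None of the 14 measured genes of the cell cycle list was called at either time, against 3.25% of all genes at 4 h and 7.00% at 24 h.

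Other genes were taken from lists of E1 enzymes, modifiers, cullin-RING subunits, HECT and RING ligases and other deubiquitinases. Genes outside the 4 classes in the interferon, NF-kB and cell cycle lists were counted with them. Of these 118 genes, 3 were higher and 1 lower at 4 h (3.39%), against 3.25% of all genes. At 24 h, 4 were higher and 3 lower (5.93%), against 7.00%, so the shares again lay near those of all genes. At 4 h these were Birc3, Pml and the RING ligase Rnf125 at 2.27 ± 0.55, all higher, and the RING ligase Mid1 at -1.21 ± 0.19. At 24 h Rbx1, the RING subunit of cullin ligases, stood at 1.33 ± 0.08 and Rbck1 was higher too. The proteasome-bound deubiquitinases Psmd14 and Uchl5 stood at 1.82 ± 0.42 and 2.06 ± 0.93, beside Usp14, the third one at the proteasome, at 0.63 and -1.98. The -1.98 of Usp14 came from spots at -4.13 and 0.16, so it rests on a single spot. Every spot of Psmd14 was at least 2-fold, from 1.52 to 2.13, while the spots of Uchl5 ran from -0.31 to 5.75. Lower at 24 h were the cullin Cul4b at -1.69 ± 0.59, with spots from -2.66 to -0.18, Mid1 at -3.33 ± 1.40 and Tnfaip3. Every spot of Mid1 was at least 2-fold lower, from -1.43 to -1.02 at 4 h and from -5.04 to -2.31 at 24 h. The 9 measured ubiquitin-like modifiers and ubiquitin genes and the 15 HECT ligases held 0 calls at both times, as did the 4 E1 genes.

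The last comparison set the response at 24 h against that at 4 h. A member was taken to differ where its means were at least 1 log2 unit apart and the values of the times did not overlap. This held for 20 of 104 members (19.2%), 9 higher and 11 lower at 24 h, and for 19.8% of all genes, 9.43% higher and 10.3% lower. Among Ube2 genes 0 were higher and 3 lower, among Usp genes 2 and 2, among Fbx genes 3 and 3, and among Trim genes 4 and 3. The labels do not say whether saline RNA was shared between the times.

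Ube2l6, Usp18 and Usp25 were among the 11 that were lower at 24 h, with differences of -2.66, -1.12 and -1.72. For Ube2l6 the arrays ran from 1.42 to 2.02 at 4 h and from -2.01 to 0.13 at 24 h. Ube2r2, an E2 of the SCF ligase, differed by -2.12, Trim2 by -2.33 and Ube2v1 by -1.38. Of the 8 values behind Ube2r2, 6 are deposited ratios of exactly 1, and its value at 24 h rests on 1 spot at -5.88. Trim2 stood at 0.14 and 2.74 at 4 h, so that its difference rests largely on the second array. The 2.74 came from spots at 5.80 and -0.31. The spots of Ube2v1 on the first array were 0.19 and 2.47 at 4 h and 0.02 and -1.76 at 24 h. Fbxo9 was the 1 member that differed by at least 3 log2 units, at 5.27, and it was called lower at 4 h and higher at 24 h, as were 0.135% of all genes. Usp11, known for its part in DNA repair, differed by 2.19, with arrays at -2.78 and -0.29 at 4 h, and Usp33 by 1.81. Trim44 differed by 1.09, from -0.04 and -0.28 at 4 h to 1.00 and 0.86 at 24 h. Its arrays lay close together at both times, but its spots at 24 h ran from -0.96 to 2.68. In limma the smallest adjusted p of a member for the difference between the times was 0.804, with 0 members and 0 genes under 0.05 and 3 members (2.88%) at an unadjusted p under 0.05, against 5.73% of all genes.

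More than 1 oligonucleotide was spotted for 8 of the 104 members, and these did not always follow each other. Trim59 had means of 0.99 and 0.11 for its 2 oligonucleotides at 4 h and of -0.05 and 1.22 at 24 h. Averaged, it came to 0.55 ± 0.02 and 0.58 ± 0.01, so the small SDs hide that disagreement. The oligonucleotides of Fbxo4 stood at 0.61 and -2.58 at 24 h, and those of Usp50 at -0.95 and 0.38. Those of Fbxw9 stood at -0.0016 and 0.48 at 4 h and at -0.02 and -0.88 at 24 h.

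Markers of 8 other cell types, 58 genes in all, held 0 calls at 4 h, against 3.25% of all genes, and 9 at 24 h, 5 higher and 4 lower, against 3.48% higher and 3.52% lower. At 24 h the neutrophil list had 3 of 10 genes higher and 1 lower. Of 15 endothelial markers, 1 was higher and 2 were lower at 4 h, against 2.25% and 0.997% of all genes. At 24 h, 5 were higher and 0 lower, against 3.48% and 3.52% of all genes. The part of such cells in the members' values was not tested.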

How the data were processed

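Each sample is an oligonucleotide array with 2 colours. The authors deposited log2 ratios for 32448 spots per array; background correction, dye normalization, spot filters and the direction of the ratio were not stated. The platform annotation gave 1 symbol to 24344 spots (75.0%) and several to 98, and did not list 8006. All 104 members matched RefSeq by gene identifier, with 0 symbols changed, and 2 spots that name a Trim gene among several genes were left out. The sign of arrays with LPS in Cy3 was turned, the spots of an oligonucleotide and then the oligonucleotides of a gene were averaged, and the median of 11138 genes was subtracted from every array. Calls used a threshold of 2-fold on both arrays. With 1 replicate per time, limma 3.58.1 (R 4.3.3, Benjamini-Hochberg over all genes), with the arrays as separate samples, served only as an alternative. pandas 2.3.3 did the rest. The procedure was tested on simulated data. Precision is limited by having 4 arrays.

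The members and the gene lists were chosen with earlier results of these data known. Members named are those called at a time, those 2-fold in opposite directions on the arrays, the highest and lowest of each class, the measured members of the interferon, muscle, ubiquitin-like E2 and testis lists, and those that differed by at least 3 log2 units between the times. Ube2c, Ube2h, Ube2n, Ube2v1, Usp11, Usp14, Usp17lc, Usp33, Usp39, Trim11, Trim23, Trim44, Trim59, Fbxo4, Fbxo34 and Fbxw9 were named after their values were seen. Other settings tried were leaving out ratios of exactly 1 (within 1e-06 of 0), scale (median absolute value) and quantile normalization, no centring, unturned signs, each array alone, every spot, a 1.5-fold threshold and limma.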

Additional observations from a re-analysis of the deposited data

Results flagged for a closer look

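In 11 of 104 members (10.6%) both arrays of 4 h lay on one side of 0 and both of 24 h on the other, as they did in 12.3% of all genes. The differences, 24 h minus 4 h in log2 units, were 5.27 for Fbxo9, 2.19 for Usp11, 1.72 for Fbxo34, 1.27 for Trim11, 1.09 for Trim44 and 0.89 for Usp17lc, which were above 0 at 24 h. They were -2.33 for Trim2, -1.38 for Ube2v1, -1.10 for Trim25, -0.73 for Trim23 and -0.69 for Fbxw9, which were below 0 at 24 h. The adjusted p of these differences in limma, with the arrays as separate samples, ran from 0.804 to 0.817. The 24 h means of Trim25 and Trim2 each rest on a single spot, at -2.23 and -3.46. The 4 h mean of Trim2 also rests on a single spot, at 5.80. The oligonucleotides of Fbxw9 stood at -0.02 and -0.88 at 24 h, so its change rests on the second. The median of the Usp class was below 0 on both arrays of 4 h and above 0 on both of 24 h, a difference of 0.18 that was not tested.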

How the results depend on the processing

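Counts of called members depended on the settings. Of 5 members at 4 h, scale normalization gave 8, unturned signs 1, a 1.5-fold threshold 10 and limma 0, and each array alone 18 to 23; of 11138 genes in all, 362 called became 557, 158, 941, 0 and 1414 to 2317. Of 6 at 24 h, unturned signs gave 1, every spot 3, a 1.5-fold threshold 21, limma 0, and each array alone 32 to 33; of all genes, 780 became 411, 406, 1808, 0 and 3239 to 3408. Of 20 that differed between the times, unturned signs left 13 and limma 0, and leaving out 1 array gave 35 to 38; of all genes, 2201 became 1298, 0 and 2968 to 4001. With unturned signs the class medians were -0.19 (Ube2) and 0.066 (Usp) at 4 h, and -0.26 (Ube2), -0.040 (Usp) and -0.17 (Fbx) at 24 h. At 24 h, leaving out ratios of exactly 1 gave 0.40 (Ube2) and 0.018 (Usp), scale normalization 0.24 (Ube2) and no centring 0.057 (Usp). On single arrays the medians at 4 h ran from -0.08 to 0.23 (Ube2), -0.13 to -0.043 (Usp), -0.17 to 0.04 (Fbx) and -0.0071 to 0.14 (Trim), and at 24 h from 0.13 to 0.22, 0.11 to 0.13, -0.029 to 0.25 and 0.022 to 0.12. With unturned signs Usp16 (-0.10), Usp18 (-0.10) and Fbxo9 (0.16) at 4 h, and Usp18 (-0.013) and Fbxo9 (-2.37) at 24 h, took the other sign, since the arrays then cancel. Of the 11 single calls, every spot kept 7, scale normalization 9, quantile normalization 9, no centring 10 and limma 0. Leaving out ratios of exactly 1 kept 10. Fbxo15 at 24 h was not computed in that setting, which kept only genes with a value on all 4 arrays. On the second array of 4 h Fbxo15 had no value left. No paired analysis was possible because the 2 arrays of a time are 1 replicate and the labels give no replicate numbers that pair the times. Ratios without intensities leave the signal over background unknown.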
